A study of Rattus norvegicus with 20 samples.

Results

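The genes described here are the JAK kinases Jak1, Jak2, Jak3 and Tyk2, the transcription factors Stat3 and Stat4, and the feedback inhibitors Socs1, Socs2, Socs3 and Cish. They were taken as the probe sets of the array whose only annotated gene symbol was one of these 10 names. Of the 10 genes, 9 had such a probe set, 1 each, among 14497 genes with a single-symbol probe set and 28826 probe sets in all. Tyk2 had none and is not analysed here. The rule names the genes by pathway and uses no measured value, but they were chosen with earlier results of these data known. The study compared male rats of the inbred strains Lewis (LEW, LEW/Crl) and Wistar Kyoto (WKY, WKY/NCrl) to ask how strain and diet shape gene expression in blood monocytes. Rats received a standard chow diet (STD) or a cafeteria diet (CAF), an energy-dense choice of palatable human foods, for 7 weeks and were 15 weeks old, and the blood cells were taken after a 9 h fast. This gave 4 groups of 5 rats (LEW STD, LEW CAF, WKY STD and WKY CAF), with 1 Rat Gene 1.0 ST array per rat. The RNA came from blood cells separated on a density gradient, called peripheral blood mononuclear cells in the sample labels and circulating monocytes, enriched by adherence to plastic, in the methods.

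JAK kinases sit on the inner side of cytokine receptor chains. When a cytokine brings the chains together, the kinases phosphorylate the receptor and the STAT proteins that dock there, which pair, enter the nucleus and bind DNA. Among the genes switched on are those of the SOCS family and Cish, whose proteins bind the kinases or the receptors and damp the signal, so that the RNA of these inhibitors is commonly read as a trace of recent cytokine signalling in leukocytes.

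STAT dimers recognise a palindrome of the letters TTCNNNGAA, which reads the same on both strands. In the 250 bases before the annotated transcription starts of RefSeq (rat build GRCr8), windows were given for 6 of the 10 genes, Cish, Socs1, Socs3, Stat3, Stat4 and Jak2. The windows of Cish and Socs1 are printed because they were the 2 that held the palindrome, here in capitals, and because both genes differed in level between the strains. For Socs1 the difference passed the threshold on STD but not on CAF. The Cish window is chr8:116850719-116850968 on the plus strand and the Socs1 window is chr10:5389324-5389573 on the plus strand, each directly upstream of the first base of the gene.
Cish: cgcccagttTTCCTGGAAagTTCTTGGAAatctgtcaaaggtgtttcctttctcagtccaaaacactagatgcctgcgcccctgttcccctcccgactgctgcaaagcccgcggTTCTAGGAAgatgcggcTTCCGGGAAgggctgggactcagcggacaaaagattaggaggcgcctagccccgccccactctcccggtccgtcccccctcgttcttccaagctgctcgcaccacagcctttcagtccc
Socs1: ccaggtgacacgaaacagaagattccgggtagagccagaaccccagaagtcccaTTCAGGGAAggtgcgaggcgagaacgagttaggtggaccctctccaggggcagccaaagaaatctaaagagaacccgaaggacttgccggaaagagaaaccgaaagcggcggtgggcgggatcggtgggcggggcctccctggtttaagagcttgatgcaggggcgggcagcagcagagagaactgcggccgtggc
The Cish window held 4 palindromes, TTCCTGGAA, TTCTTGGAA, TTCTAGGAA and TTCCGGGAA, whose first bases lay 241, 230, 136 and 119 bases before the start, and none of them overlapped another. The Socs1 window held 1, TTCAGGGAA, 196 bases before the start. Of the 33469 RefSeq windows of the same length, 7.67% held at least 1 such palindrome, and 2 windows, or 0.00598%, held at least 4. The windows of Jak2, Stat3, Stat4 and Socs3 held none, although Jak2 and Socs3 also differed in level between the strains on both diets. The windows of Socs3 and Stat3 lay in part or whole inside the annotated gene span, because their listed starts were 1207 and 154 bases inside it. A match of letters is a description of the sequence, and no binding was measured. The sequences are those of the reference build and were not read from the LEW or WKY rats.

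**Figure D1:**
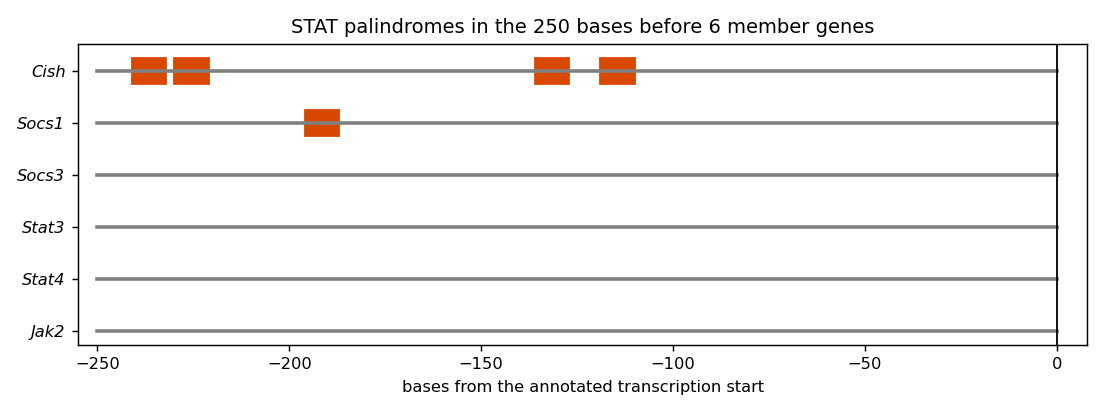
Positions of the TTCNNNGAA palindrome in the 250 bases before the annotated start of 6 genes, with the distance from the start in bases on the x axis and 1 row per gene. Cish has 4 marks, in 2 close pairs, Socs1 has 1, and the rows of the other 4 genes are empty.

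Across the 20 arrays the deposited log2 signals ran from 3.57 to 14.4, with array medians between 6.83 and 6.90, and the mean correlation of arrays within a group was 0.994 to 0.997. The lowest group mean of the 9 genes was 8.56, so all lay above the array medians. As a check on the labelled cell type, the monocyte markers Cd14, Lyz2 and Csf1r had mean log2 signals of 12.71, 13.34 and 11.68, but the T cell gene Cd3e (12.27), the B cell gene Cd79b (12.19) and the platelet gene Pf4 (13.03) were also well above the array medians, so the samples held RNA beyond that of monocytes. In such bulk RNA, fewer cells of a type and less RNA per cell cannot be told apart. Heat shock genes set 4 arrays apart, LEW STD rats 2 and 3, LEW CAF rat 2 and WKY STD rat 1, with mean standardised levels of 1.19 to 2.67 against −0.11 for the next array. Values or calls without these arrays are given beside results that they touch, though not beside every one.

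The first question of the design was how cells of the 2 strains differed on the same diet. Cish was 1.96-fold and Socs3 1.44-fold higher in WKY than in LEW on CAF, and on STD Socs1 was also higher, by 1.51-fold. Socs2 and the kinase Jak2 were lower in WKY on both diets. With limma's moderated test over all 28826 probe sets and a Benjamini-Hochberg adjusted p under 0.05, 4 of the 9 genes were called between the strains on the CAF diet (2 higher and 2 lower in WKY), where 7.58% of all probe sets were called, 4.24% higher and 3.34% lower. On the STD diet 5 of the 9 were called (3 higher, 2 lower), against 11.3% of all probe sets, 5.88% higher and 5.38% lower. With both diets averaged, 6 of the 9 were called (4 higher, 2 lower), against 17.2%, 8.74% higher and 8.42% lower. Among the 6749 probe sets at least as bright as the dimmest of the 9, the shares called were higher, at 13.7%, 21.3% and 30.5%. The median log2 difference of the 9 genes was 0.10 on CAF and −0.01 on STD, beside −0.01 and −0.00 over all probe sets, since the genes moved in both directions. The arrays are 5 per group, which limits the precision of every comparison: for the median probe set, a contrast of 2 groups had a standard error of 0.07 (log2).

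**Figure D2:**
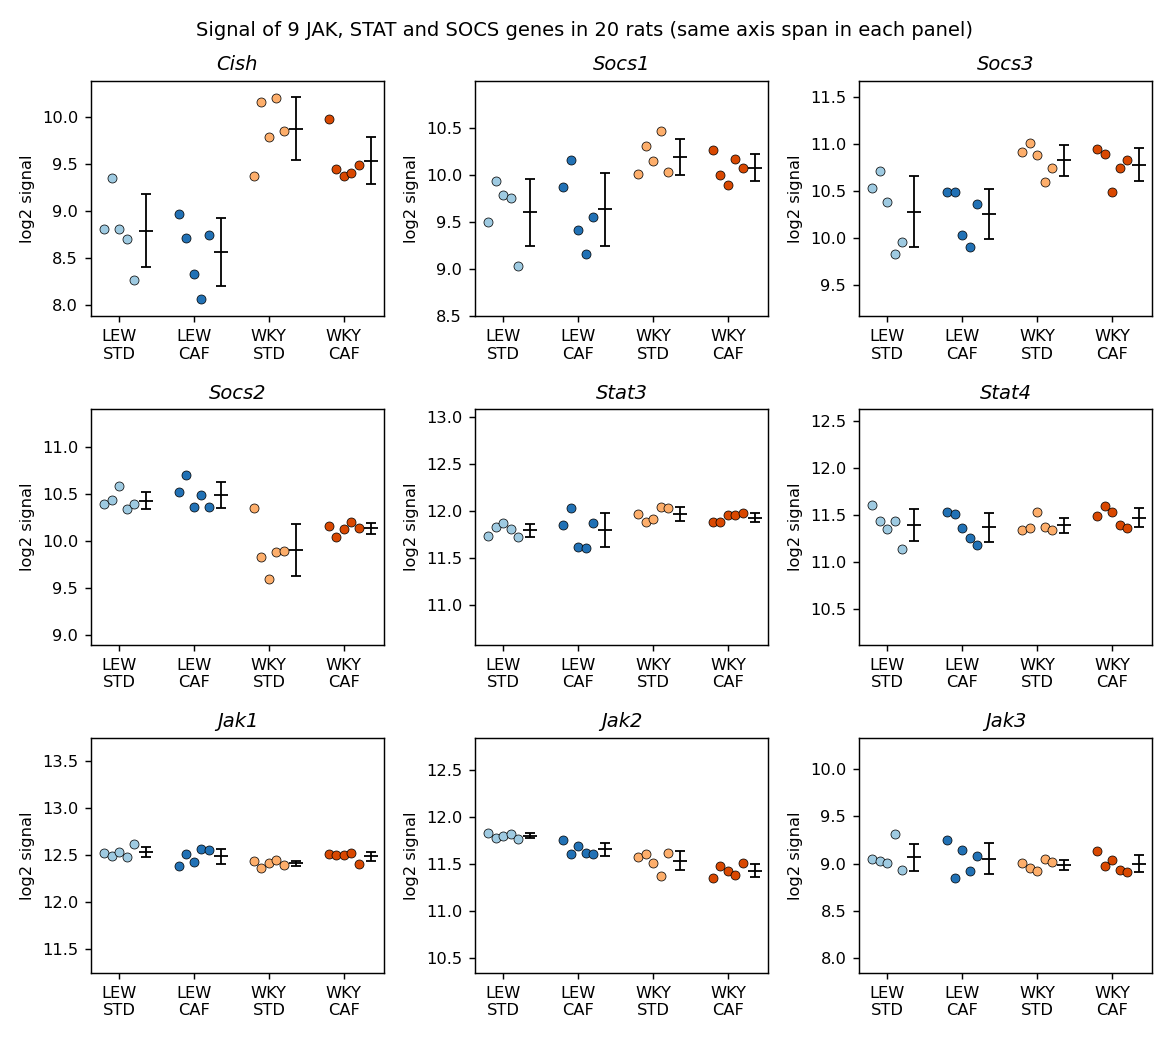
Log2 signal of 9 genes in each of 20 rats, 1 panel per gene with the same axis span, 1 point per rat and a bar with whiskers for the mean and SD of each group of 5. Cish is higher in every WKY rat than in any LEW rat, Jak2 is lower in WKY within each diet, and Jak1, Jak3 and Stat4 differ little between groups.

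Cish, a SOCS family member induced through STAT5 that damps signalling from interleukin-2 and growth hormone type receptors, showed the largest strain difference of the 9. In LEW rats 1 to 5 its log2 signals were 8.81, 9.36, 8.81, 8.71 and 8.27 on STD and 8.96, 8.72, 8.33, 8.06 and 8.74 on CAF. In WKY rats 1 to 5 they were 9.38, 10.16, 9.79, 10.20 and 9.85 on STD and 9.97, 9.45, 9.37, 9.41 and 9.49 on CAF. Every WKY rat lay above every LEW rat, although the highest LEW rat and the lowest WKY rats were nearly level. The group means ± SD (n = 5) ran in the order LEW CAF 8.56 ± 0.36, LEW STD 8.79 ± 0.39, WKY CAF 9.54 ± 0.25 and WKY STD 9.88 ± 0.33, and within each strain the neighbouring diet groups overlapped. The log2 difference of WKY minus LEW was 0.97 on CAF (SE 0.19, limma adjusted p = 0.00251), a 1.96-fold higher signal, and 1.08 on STD (SE 0.19, limma adjusted p = 6.79e-04), a 2.12-fold higher signal. The highest LEW STD rat and the lowest WKY STD rat were both arrays of high heat shock level, and without the 4 such arrays the difference was 1.01 on CAF and 1.40 on STD. Such complete separation over both diets was seen for 1 of the 9 genes, Cish, and for 3.06% of all probe sets.

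Socs1 binds JAK kinases directly and is the main brake on interferon signalling. In LEW rats 1 to 5 its log2 signals were 9.499, 9.94, 9.78, 9.76 and 9.03 on STD and 9.88, 10.16, 9.42, 9.16 and 9.55 on CAF. In WKY rats 1 to 5 they were 10.01, 10.31, 10.14, 10.46 and 10.03 on STD and 10.27, 9.995, 9.89, 10.17 and 10.07 on CAF. On STD the strains did not overlap, and on CAF LEW rat 2 lay inside the WKY range. The difference was 0.59 on STD (SE 0.17, limma adjusted p = 0.0256) and 0.44 on CAF (SE 0.17, limma adjusted p = 0.128), which was not called. Group means were 9.60 ± 0.35 and 9.63 ± 0.39 in LEW on STD and CAF, and 10.08 ± 0.15 and 10.19 ± 0.19 in WKY on CAF and STD (SD, n = 5). The CAF difference was called without LEW CAF rat 2 (adjusted p = 0.0292) and without the 4 arrays of high heat shock level (0.58, adjusted p = 0.0232), whereas the STD call was lost when LEW STD rat 1 or 5 or WKY STD rat 2 or 4 was left out (adjusted p = 0.0577 to 0.0777). Without the 4 arrays of high heat shock level the STD call was kept.

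Socs3, which binds the receptor chain gp130 together with the kinase and limits interleukin-6 signalling through STAT3, was also higher in WKY. In LEW rats 1 to 5 its log2 signals were 10.53, 10.70, 10.38, 9.83 and 9.95 on STD and 10.48, 10.49, 10.03, 9.90 and 10.36 on CAF. In WKY rats 1 to 5 they were 10.91, 11.002, 10.88, 10.59 and 10.74 on STD and 10.94, 10.89, 10.49, 10.74 and 10.82 on CAF. On CAF the lowest WKY rat lay just above the highest LEW rat. On STD LEW rat 2, the array of highest heat shock level, lay above the lowest WKY rat. The difference was 0.52 on CAF (SE 0.15, limma adjusted p = 0.0374) and 0.55 on STD (SE 0.15, limma adjusted p = 0.0223). Means were 10.25 ± 0.27 and 10.28 ± 0.38 in LEW on CAF and STD, and 10.78 ± 0.18 and 10.82 ± 0.16 in WKY on CAF and STD (SD, n = 5). Dropping rat 3 or 4 of LEW, or rat 1, 2, 4 or 5 of WKY, took away the CAF call (adjusted p = 0.0640 to 0.111). Dropping LEW STD rat 4 or 5, or WKY STD rat 2, took away the STD call (adjusted p = 0.0601 to 0.0697), as did a fit of the compared groups alone (0.0534). Without the 4 arrays of high heat shock level the CAF difference was 0.58 (adjusted p = 0.0213), and the STD call was kept. With the replicate number as a block the adjusted p was 0.00400 on CAF and 0.00220 on STD. The CAF call was kept with the monocyte, heat shock or NK cell score as a covariate (adjusted p = 0.00263, 0.00905 and 0.0420). The T cell, B cell, platelet, red cell, neutrophil, immediate-early and interferon-stimulated scores took it away.

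Socs2, which restrains growth hormone receptor signalling, went the other way from Socs1, Socs3 and Cish. In LEW rats 1 to 5 its log2 signals were 10.39, 10.44, 10.58, 10.34 and 10.39 on STD and 10.51, 10.70, 10.36, 10.48 and 10.36 on CAF. In WKY rats 1 to 5 they were 10.35, 9.83, 9.59, 9.88 and 9.89 on STD and 10.15, 10.04, 10.12, 10.20 and 10.14 on CAF. On CAF all WKY rats lay below all LEW rats. On STD WKY rat 1, an array of high heat shock level, lay just above the lowest LEW rat and the other 4 lay below all LEW rats. The log2 difference was −0.35 on CAF (SE 0.10, limma adjusted p = 0.0285) and −0.52 on STD (SE 0.10, limma adjusted p = 0.00103), signals 1.28-fold and 1.44-fold lower in WKY. Means ran from WKY STD 9.90 ± 0.27 and WKY CAF 10.13 ± 0.06 to LEW STD 10.43 ± 0.09 and LEW CAF 10.48 ± 0.14 (SD, n = 5). Dropping rat 1, 2 or 4 of LEW, or rat 2, 3 or 5 of WKY, took away the CAF call (adjusted p = 0.0531 to 0.0760), but without the 4 arrays of high heat shock level the differences were −0.30 on CAF and −0.58 on STD, both called.

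Of the 3 kinases measured, Jak2, which serves the receptors of erythropoietin, growth hormone, interferon gamma and the GM-CSF family, was called. In LEW rats 1 to 5 its log2 signals were 11.83, 11.78, 11.80, 11.82 and 11.77 on STD and 11.75, 11.60, 11.69, 11.62 and 11.61 on CAF. In WKY rats 1 to 5 they were 11.57, 11.60, 11.51, 11.37 and 11.62 on STD and 11.35, 11.48, 11.42, 11.39 and 11.51 on CAF. Within each diet every WKY rat lay below every LEW rat, although WKY STD overlapped LEW CAF. The difference was −0.22 on CAF (SE 0.05, limma adjusted p = 0.00524) and −0.26 on STD (SE 0.05, limma adjusted p = 9.22e-04), signals 1.17-fold and 1.201-fold lower, small in size but several times their error. Means were WKY CAF 11.43 ± 0.07, WKY STD 11.53 ± 0.10, LEW CAF 11.65 ± 0.07 and LEW STD 11.80 ± 0.03 (SD, n = 5).

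Jak1, which is shared by interferon and gp130 receptors, ranged only from 12.36 to 12.62 over the 20 rats. On STD its WKY signals, 12.44, 12.36, 12.41, 12.44 and 12.40, all lay below the LEW signals, 12.53, 12.49, 12.54, 12.48 and 12.62. The difference of −0.12 (SE 0.04) did not pass the threshold (limma adjusted p = 0.0778). It did pass with an intensity trend (adjusted p = 0.0490), with arrays centred on their medians (0.0430), with quantile normalisation (0.0453) and with the monocyte score as a covariate (0.0295). In all other settings it did not pass. Among them were the fit without the 4 arrays of high heat shock level (0.146), the T cell score as a covariate (0.505) and each array left out (0.0629 to 0.198). On CAF the Jak1 difference was 0.00 (95% interval −0.09 to 0.09, limma adjusted p = 0.994). Jak3, which pairs with the common gamma chain of lymphocyte interleukin receptors, had group means of 8.99 to 9.06, and its differences were −0.05 on CAF (95% interval −0.21 to 0.11) and −0.08 on STD (95% interval −0.23 to 0.08).

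Stat3, the STAT of interleukin-6 and interleukin-10 signalling, had log2 signals of 11.73, 11.83, 11.87, 11.80 and 11.72 in LEW rats 1 to 5 on STD and 11.96, 11.88, 11.91, 12.04 and 12.03 in WKY rats 1 to 5 on STD. These groups did not overlap, yet the difference of 0.17 (SE 0.07) did not pass the threshold (limma adjusted p = 0.103). Stat3 on STD was called without LEW CAF rat 2, an array of high heat shock level that enters the shared error (adjusted p = 0.0487), and with the heat shock score as a covariate (0.0275), but not without all 4 such arrays (0.0594). On CAF the LEW rats spread from 11.61 to 12.03 around all WKY rats, which lay between 11.88 and 11.97, and the difference was 0.13 (SE 0.07, limma adjusted p = 0.296). With both diets averaged the difference was 0.15 (SE 0.05, limma adjusted p = 0.0268), and this call was lost without LEW STD rat 5, WKY STD rat 5 or LEW CAF rat 3 or 4 (adjusted p = 0.05001 to 0.0541), and with quantile normalisation between arrays (0.0529). Stat4, which carries interleukin-12 signals in NK and T cells, had group means of 11.37 to 11.48, and its differences were 0.10 on CAF (95% interval −0.06 to 0.27) and −0.01 on STD (95% interval −0.17 to 0.16).

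By the other measure, separation of the groups, 4 of the 9 genes did not overlap between the strains on CAF (Cish and Socs3 higher, Socs2 and Jak2 lower in WKY), beside 7.8% of all probe sets. On STD 5 did not overlap (Cish, Socs1 and Stat3 higher, Jak1 and Jak2 lower), beside 8.46%. The averaged contrast, which has the smaller error, gave differences of 1.03 for Cish (SE 0.14), 0.53 for Socs3 (SE 0.11), 0.52 for Socs1 (SE 0.12), −0.44 for Socs2 (SE 0.07) and −0.24 for Jak2 (SE 0.03), with limma adjusted p-values of 1.40e-05, 0.00115, 0.00367, 1.00e-04 and 2.78e-05.

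**Figure D3:**
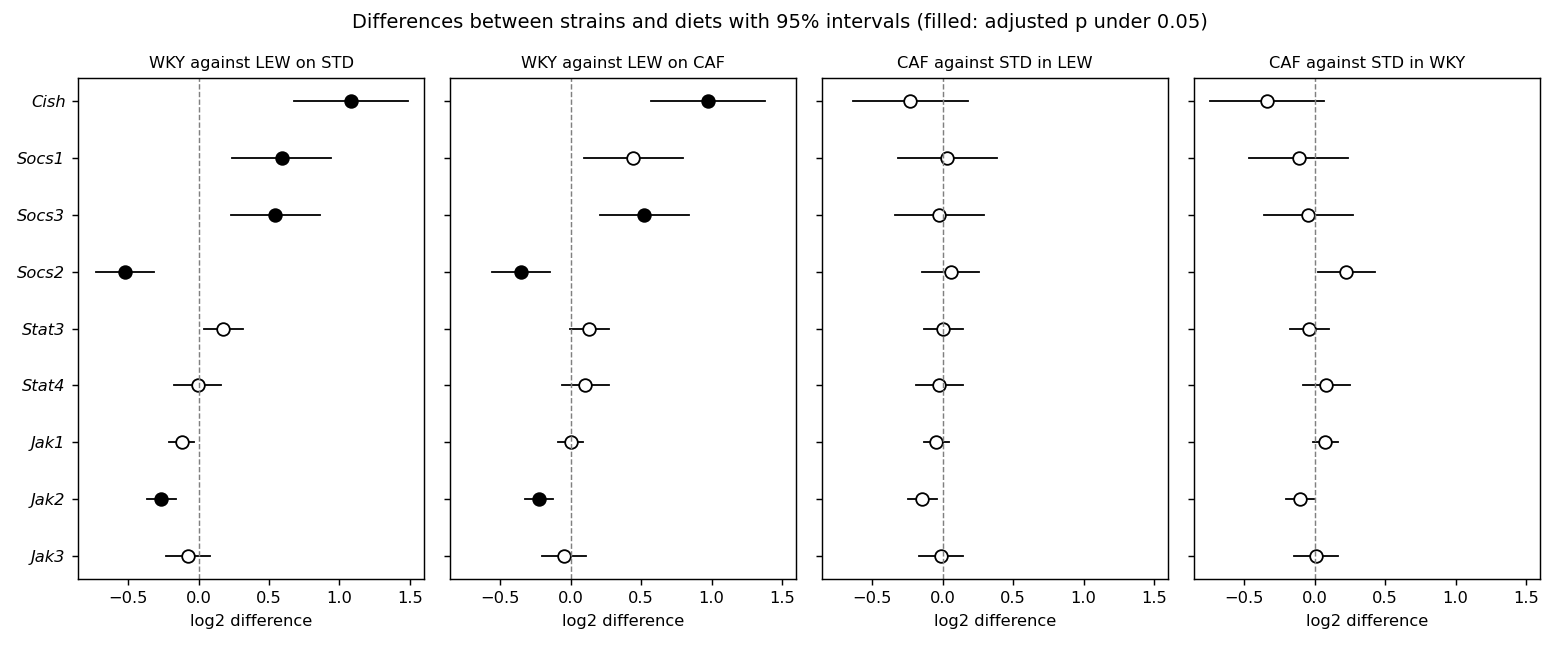
Log2 differences of 9 genes between strains within each diet and between diets within each strain, with 95% intervals from limma, and filled points for adjusted p under 0.05. Filled points occur in the strain panels, with Cish farthest to the right near 1 and Socs2 farthest to the left, and none occurs in the diet panels.

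The second question was how the CAF diet changed the cells of each strain. Limma called 0 of the 9 genes in LEW and 0 in WKY, and 0 of all probe sets in either strain (0% each). At an unadjusted p under 0.05 there was 1 gene in LEW and there were 2 in WKY, where 5.46% and 8.81% of all probe sets had such a p. Jak2 was the gene in LEW: every CAF rat lay below every STD rat, as 0.989% of probe sets did in either direction, with a difference of −0.14 (95% interval −0.25 to −0.04, unadjusted p = 0.00766, limma adjusted p = 0.884). In WKY Jak2 differed by −0.10 (95% interval −0.21 to −0.00, unadjusted p = 0.0440, limma adjusted p = 0.548) with overlapping groups, and 0 of the 9 genes had separate groups there (2.07% of all probe sets). Averaged over both strains limma called 0 of the 9 genes (0% of all probe sets) and 1 gene, Jak2, had an unadjusted p under 0.05 (8.26% of all probe sets), at −0.12 (SE 0.03, limma adjusted p = 0.365). In that average 0 of the 9 had separate groups, beside 0.00694% of all probe sets. Socs2 in WKY was 0.23 higher on CAF (95% interval 0.02 to 0.43, unadjusted p = 0.0314, limma adjusted p = 0.514). In WKY STD the rat with the highest Socs2 signal was rat 1, an array of high heat shock level, and without it the Socs2 diet difference was 0.34 (limma adjusted p = 0.110).

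Cish was lower on CAF than on STD in both strains by values that did not pass the test, −0.23 in LEW (95% interval −0.63 to 0.18) and −0.34 in WKY (95% interval −0.74 to 0.07). The intervals for Socs1 and Socs3 ran from −0.32 to 0.38 and −0.34 to 0.29 in LEW, and from −0.46 to 0.24 and −0.36 to 0.27 in WKY, so changes within these bounds were not excluded with 5 rats a group. For the interaction of diet and strain, limma called 0 of the 9 genes (0% of all probe sets) and 0 had an unadjusted p under 0.05 (5.95% of all probe sets). The nearest was Jak1 at 0.12 (95% interval −0.00 to 0.25, unadjusted p = 0.0574, limma adjusted p = 0.843), and that of Cish was −0.11 (95% interval −0.68 to 0.46).

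Other genes of the same pathway were counted in 5 lists of 96 genes, of which 84 were measured. Between the strains 13 rose and 2 fell in WKY relative to LEW on CAF, and 19 rose and 4 fell on STD, and 0 were called in any diet comparison. These are 17.9% and 27.4% of the 84, beside 7.58% and 11.3% of all probe sets and 13.7% and 21.3% of those at least as bright as the dimmest of the 9 genes. The median log2 difference over the 84 was 0.06 on CAF and 0.12 on STD. Of 24 cytokine ligands, 5 were higher on CAF and 8 on STD and none was lower. These are 20.8% and 33.3%, beside 4.24% and 5.88% of all probe sets called higher. They included Il23a, which drives interleukin-17 producing T cells (1.76 and 1.85 on CAF and STD, adjusted p = 2.02e-04 and 9.36e-05), Clcf1, a gp130 ligand (0.64 and 0.81, adjusted p = 0.00462 and 3.74e-04), and on CAF Lif, another gp130 ligand (1.05, adjusted p = 0.00237). Il12a (0.69 and 0.55) and, on STD, Csf2 (0.60) were also called, with mean log2 signals of 6.16 and 5.61 that lie below the array medians.

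Of 29 receptor chains, 3 were higher and 1 lower on CAF, and 4 higher and 2 lower on STD. These shares, 13.8% and 20.7%, lie near those of the bright probe sets, so the count is no result about the receptors as a list. The interleukin-7 receptor chain Il7r, found on naive and memory T cells, was lower (−0.42 on CAF, adjusted p = 0.0125, and −0.63 on STD, adjusted p = 2.45e-04), and the interleukin-2 and -15 receptor chain Il2rb, abundant on NK cells, was higher (0.45 and 0.53). Ifngr1, an interferon gamma receptor chain, was 0.19 and 0.23 higher, Il12rb2 was 0.56 higher on CAF, and Csf3r, the neutrophil growth factor receptor, was 1.42 higher on STD. Of 4 other STATs, Stat2, which acts downstream of type I interferon, was higher on both diets (0.49 and 0.47, adjusted p = 3.14e-04 and 3.25e-04). On STD Stat5b was lower (−0.29) and Stat6 higher (0.19).

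Of 13 other inhibitors none was called on CAF, and on STD Socs5 was lower (−0.29, adjusted p = 4.39e-04) and the phosphatase gene Ptpn1 higher (0.39, adjusted p = 0.0271). The STD share, 15.4%, lies below the 21.3% of the bright probe sets, so the count is no result about the inhibitors as a list. Of 14 STAT target genes, 4 were higher and 1 lower on CAF, and 4 were higher on STD, 35.7% and 28.6% of the list beside 13.7% and 21.3% of the bright probe sets. Pim1, a survival kinase, was higher on both (0.37 and 0.48, adjusted p = 0.00618 and 4.01e-04), as was the survival gene Mcl1 (0.24 and 0.20). On CAF Irf8 was higher (0.41) and the repressor Bcl6 was lower (−0.22). On STD Bcl2l1 (0.39) and Tbx21 (0.56), the T-bet gene of NK and Th1 cells, were higher.

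**Figure D4:**
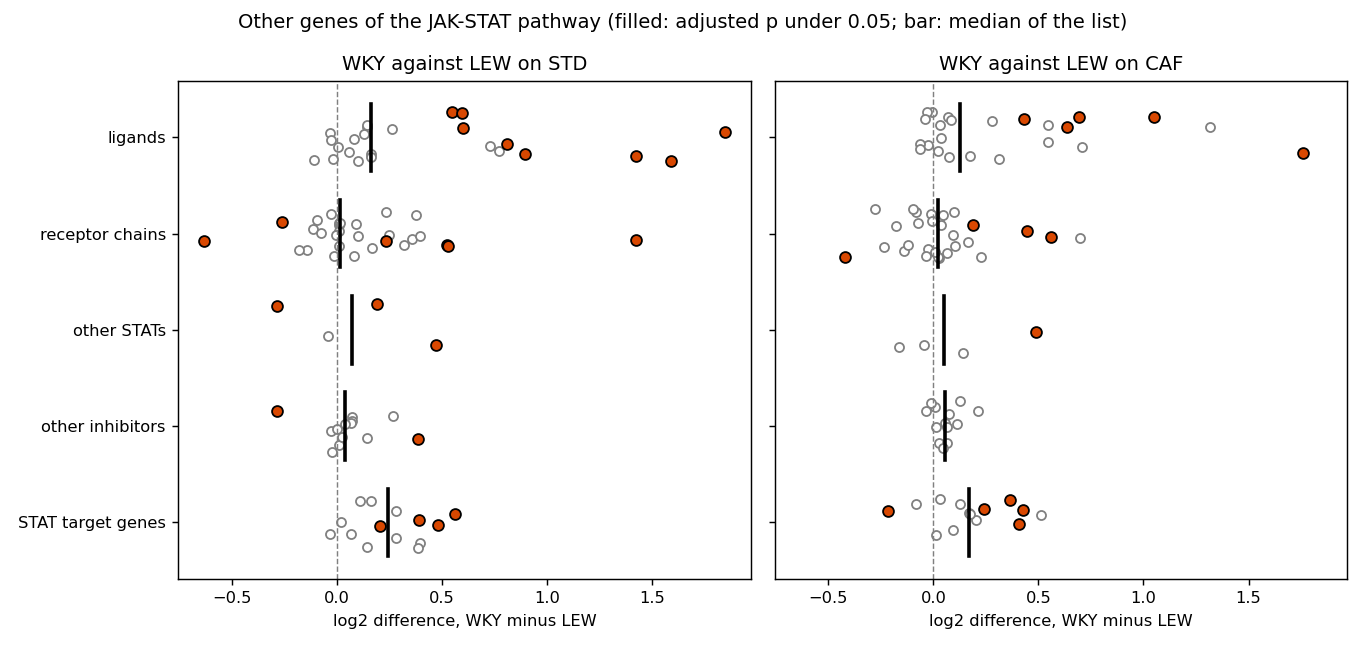
Log2 difference, WKY minus LEW, of each measured gene of 5 pathway lists on each diet, 1 point per gene, filled for adjusted p under 0.05, with a bar at the median of the list. Filled ligand points all lie to the right of 0, and the medians of the ligands and STAT targets lie between 0.13 and 0.24.

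Markers of several cell types and states moved with strain, and their counts are to be read against the 4.24% higher and 3.34% lower of all probe sets on CAF and the 5.88% and 5.38% on STD. Immediate-early genes, which respond first to many stimuli, were higher in WKY for 6 of 15 genes on CAF and 13 of 15 on STD, and none was lower. Their summed log2 level was 14.75 to 15.17 in LEW CAF against 15.38 to 15.61 in WKY CAF, and 14.76 to 15.40 in LEW STD against 15.66 to 15.89 in WKY STD, with no overlap within a diet. NK cell genes were higher for 7 of 10 on CAF (1 lower) and 8 of 10 on STD (2 lower), and their summed log2 level ran from 13.33 to 13.84 over the LEW rats and 14.15 to 14.55 over the WKY rats. Neutrophil genes were higher for 5 of 12 on CAF and 9 of 12 on STD, with summed levels of 12.24 to 13.44 and 13.19 to 14.26 in LEW and WKY on CAF and 11.96 to 12.65 and 13.13 to 14.76 on STD. Interferon-stimulated genes, themselves STAT targets, were higher for 9 of 11 on CAF and 10 of 11 on STD.

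Monocyte genes were higher for 1 and lower for 4 of 14 on CAF and higher for 3 and lower for 4 on STD, with summed log2 levels of 15.28 to 15.56 in LEW CAF, 14.69 to 15.14 in WKY CAF, 15.33 to 15.49 in LEW STD and 14.94 to 15.22 in WKY STD. T cell genes were lower for 3 of 15 on CAF and 7 of 15 on STD, with 1 higher on each. B cell, dendritic cell, platelet and red cell genes had none higher, and 0 of 6, 2 of 5, 0 of 5 and 3 of 9 were lower on CAF and 1, 1, 2 and 2 on STD, while of 9 heat shock genes none was called on either diet.

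With the immediate-early score, the mean standardised level of those genes, as a covariate of the limma fit, the strain difference of Cish was 0.24 on CAF (SE 0.18, adjusted p = 0.609) and −0.01 on STD (SE 0.23, adjusted p = 0.991), and that of Socs3 was 0.04 on CAF and −0.18 on STD. Because this score did not overlap between the strains within a diet, strain and score cannot be told apart. Under the same covariate Socs2 was at −0.42 on CAF and −0.62 on STD (adjusted p = 0.131 and 0.0907) and Jak2 at −0.20 and −0.22 (adjusted p = 0.168 and 0.262), none of them called. With the NK cell score as a covariate the difference of Cish was 0.98 on CAF (SE 0.29, adjusted p = 0.0890) and 1.09 on STD (SE 0.36, adjusted p = 0.156). With the neutrophil score it was 0.64 and 0.49 (adjusted p = 0.132 and 0.658), and with the interferon-stimulated score 0.92 and 1.00 (adjusted p = 0.393 and 0.644). The NK cell and interferon-stimulated scores did not overlap between the strains on either diet, nor the neutrophil score on STD or the red cell score on CAF. There too strain and score cannot be told apart. With the monocyte score on CAF, Jak2 was at −0.16 (adjusted p = 0.147) and Cish at 1.24 (adjusted p = 0.00295). The part of cell composition in these differences was not tested further.

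Among rats of the same group, after the group means were taken off, Cish and Socs1 went together (Pearson's r = 0.80 over 20 arrays, 0.86 over the 16 without the arrays of high heat shock level). Socs3 correlated with Cish at 0.62 (0.62 without those arrays) and with Socs1 at 0.54 (0.38), Stat3 with Socs1 at 0.68 (0.48), and Jak1 with Jak2 at −0.65 (−0.72), out of 36 pairs computed. Jak3 correlated with Socs1 at 0.17 and with Cish at 0.30, and these values rose to 0.76 and 0.66 without those arrays. The points share an array and its scaling, so these values are descriptions. With the immediate-early score r was 0.80 for Cish (0.86 without the 4 arrays), 0.82 for Socs1 (0.85), 0.68 for Socs3 (0.47), 0.15 for Socs2 (−0.12) and 0.18 for Jak3 (0.77). With the heat shock score r was 0.63 for Socs2 (0.48 without those arrays), 0.56 for Socs1 (0.59), 0.54 for Socs3 (−0.11) and 0.30 for Cish (0.46).

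**Figure D5:**
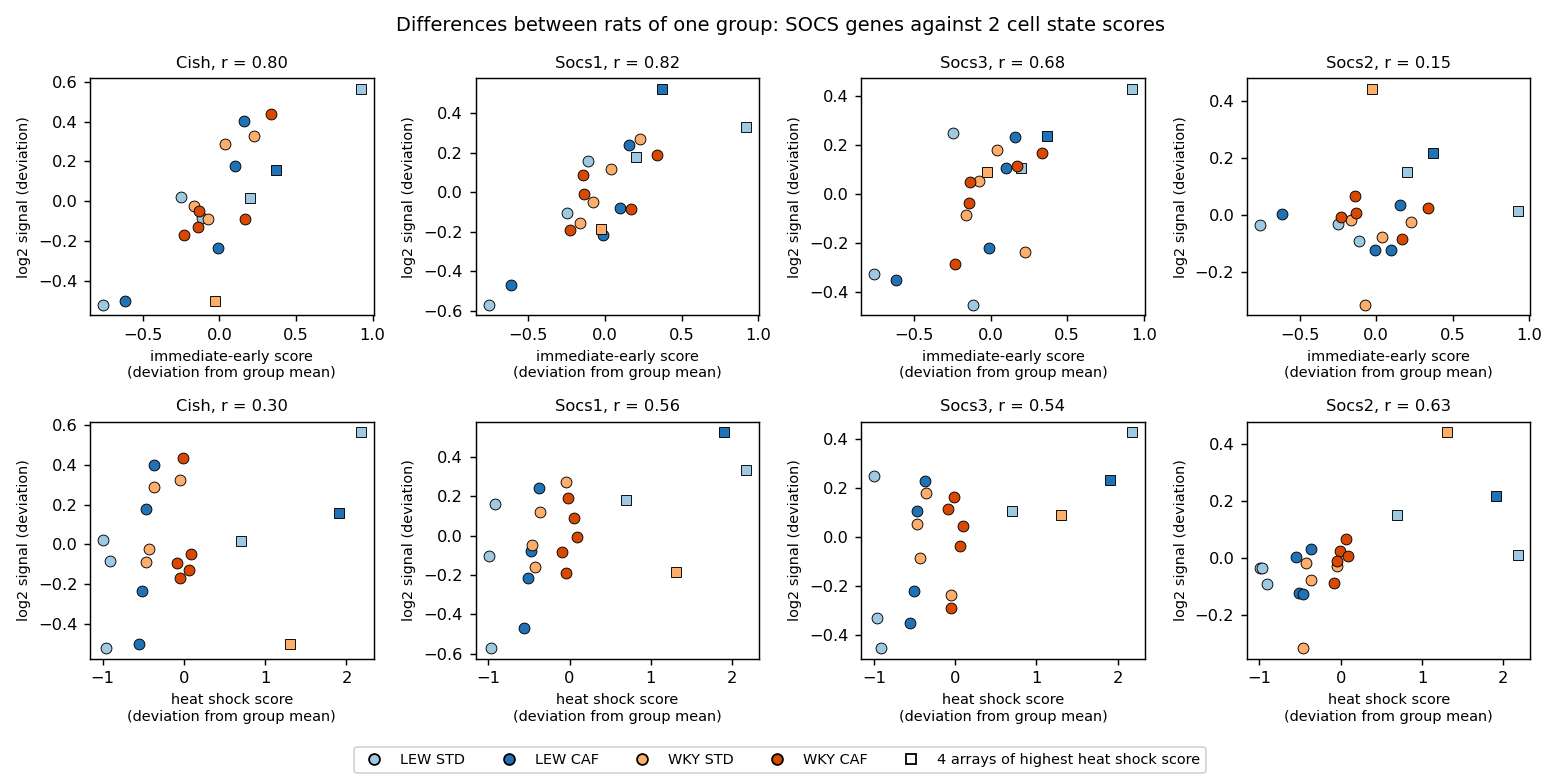
Deviation of each rat from its group mean in log2 signal of 4 SOCS family genes (y axes) against the deviation of its immediate-early or heat shock score (x axes), 20 points per panel coloured by group, with squares for the 4 arrays of highest heat shock score. Cish and Socs1 rise along the immediate-early score (r of 0.80 and 0.82), Socs2 does not (0.15).

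The genes whose within-group pattern over the 20 arrays was most like that of each gene were found by the same correlation. They are the 3 highest of 15209 single-symbol probe sets for each gene. Over all those probe sets the median r lay between −0.08 and 0.03. Picking the highest of so many on 20 arrays gives high values by itself, and whether they exceed that was not tested. For Cish they were Sertad1 (r = 0.90) and Fosl2, a member of the AP-1 family, on 2 probe sets (0.90 and 0.89). For Socs1 they were Dusp5, a phosphatase of ERK (0.94), Sec24a (0.91) and Fosl2 (0.88), and for Socs3 they were Cdkn1a, the p21 cell cycle inhibitor (0.95), Txnrd1 (0.93) and Tubb6 (0.93). These values were 0.84 or higher without the 4 arrays of high heat shock level. For Socs2 they were Prps1 (0.89), Fchsd2 (0.83) and Fcer2 (0.82), which dropped to 0.63, 0.69 and 0.54 without those arrays. Stat4 was most like Usp25 (0.92), Sik2 (0.90) and the clock output gene Dbp (0.89), and Stat3 was most like Tnfrsf18 (0.86), Septin11 (0.84) and Spag9 (0.84). Jak2 was most like the glycolytic gene Pfkl (0.83), then Gsap (0.76) and Rp2 (0.75), Jak1 was most like Ercc3 (0.83), Sirt4 (0.81) and Lrrc42 (0.80), and Jak3 was most like Abca2, Klf12 and Ggt6 (0.81 each).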

How the data were processed

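Rat Gene 1.0 ST arrays of 20 rats were read from the value table of the series, which holds log2 values that the authors deposited already normalised. The methods describe RMA (background correction, quantile normalisation and summarisation), and the submitters' processing notes name MAS5, so the exact upstream steps are not settled here; no scanner file was used. Probe sets were named from GEO's platform annotation, where 15209 probe sets had a single symbol, 306 had several and 13311 were not listed. Each value is a deposited log2 signal per probe set, so depth does not apply and the number of arrays limits precision.

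Groups came from the strain and diet labels. Differences were tested with limma 3.58.1 (lmFit and eBayes without trend, R 4.3.3) on all 28826 probe sets and 20 arrays with 1 mean per group, 16 residual and 3.67 prior degrees of freedom, Benjamini-Hochberg adjustment over all probe sets and a threshold of 0.05. The contrasts were strain within each diet, diet within each strain, their interaction, and the averages of strain and of diet. Rats are separate animals. Summed levels are log2 of the sum of a list's linear signals, and scores are means of standardised signals. The named genes were the 10 genes, the called genes of 5 pathway lists (at most 4 per list and comparison, by smallest adjusted p), at most 3 genes of each cell type or state list, and the 3 probe sets most correlated with each gene. The genes and lists were chosen with earlier results of these data known. Promoter windows came from RefSeq (GRCr8).

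The alternatives were only the compared groups in the fit, an intensity trend, robust eBayes, median centring, quantile normalisation, leaving out the lowest 40% of probe sets, single-symbol probe sets alone, array quality weights, the replicate number as a block, 10 score covariates and each array left out. Leaving out the 4 arrays of highest heat shock level and the interferon-stimulated, B cell and platelet scores were added after seeing the data. The fit was tested on simulated data.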

Additional observations from a re-analysis of the deposited data

Results flagged for a closer look

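In 3 of the 36 sets of 5 rats (9 genes in 4 groups), 1 rat lay far from the other 4 relative to the range of its group, and chance alone gives this in about 1 in 20 groups. Cish in WKY CAF rat 1 was 9.974 on the log2 scale, and the next rat was at 9.49. Jak1 in WKY CAF rat 5 was the lowest of its group at 12.405, with the next at 12.50, a gap of less than 0.1. Stat4 in WKY STD rat 3 was the highest at 11.534, with the next at 11.38. None of these rats was among the 4 arrays of high heat shock level.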

How the results depend on the processing

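Between strains the number of the 9 genes called was 4 on CAF, 5 on STD and 6 averaged over diets, and it was 0 for each diet contrast and the interaction. Outside the leave-one-out fits 120 of 137 recomputed counts stayed within 1.5 times. The diet and interaction counts were 0 in every setting. As the main fit called 0 of all probe sets there, those counts had little room to move. The 17 counts that moved further were all strain counts with a score as covariate. Between strains on CAF the count was 2 with the monocyte score, 1 with the NK cell or red cell score, and 0 with the neutrophil, immediate-early or interferon-stimulated score. Of these, the NK cell, red cell, immediate-early and interferon-stimulated scores did not overlap between the strains on CAF, so strain and score cannot be told apart there. On STD it was 3 with the T cell or platelet score and 0 with the NK cell, neutrophil, immediate-early or interferon-stimulated score. Averaged over diets it was 3 with the T cell score, 1 with the NK cell score and 0 with the neutrophil, immediate-early or interferon-stimulated score. Leaving out each array gave 2 to 4 on CAF, 3 to 6 on STD, 5 to 6 averaged, and 0 to 0 for the diet contrasts and the interaction. Under the immediate-early score as covariate, called differences reversed for Socs1 (−0.38), Socs3 (−0.18) and Cish (−0.014) on STD and for Stat3 (−0.017), Socs1 (−0.29) and Socs3 (−0.070) averaged over diets, none of them past the threshold; the cause was not tested. Of 2493 differences recomputed for single genes, 2379 kept their side of the threshold and, where called, their sign, 97 lost the call, 11 gained one and 6 reversed. Every lost, gained or reversed call was in a strain contrast. Of the 2379, 181 changed sign while called in neither fit.

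With the replicate number as a block, the pairing changed no count (4 on CAF, 5 on STD, 6 averaged, 0 otherwise). It did change the error of single genes. In the strain contrast on CAF the SE fell from 0.15 to 0.10 for Socs3 and from 0.08 to 0.06 for Stat4. For Jak1, Jak2, Stat3 and Socs2 it rose slightly. In every group Socs3 was highest in rats 1 and 2, and Stat4 was lowest in rat 5. The deviations of same-numbered rats correlated at −0.18 to 0.43 over 30 pairs (median 0.06), with 9 pairs over 0.1. Differently numbered rats were not compared, so whether the numbers pair the rats was not settled. The main fit does not pair them. Without the 4 arrays of high heat shock level, 5, 5 and 6 genes were called. The size of the arrays' signal over background was not measured here.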
